A study of Mus musculus with 18 samples.

Results

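The developmental homeobox genes outside the Hox clusters studied here are 62 mouse genes of 11 families: Pax, Lhx, Dlx, Irx, Msx, Pitx, Nkx, Emx, Gbx, Meis and that of Six4 and its relatives. They were picked out by gene symbol, with earlier results of these data known, from the 54352 gene names shared by both count tables. RNA sequencing was done on mouse embryonic stem cells (mESCs) and on embryoid bodies, which are floating aggregates in which such cells differentiate. The mutant group, K19R, is a knock-in line whose FLAG-tagged EED has arginine in place of a lysine, and its control, FLAG-WT, carries FLAG-tagged EED of wildtype sequence. EED belongs to the core of PRC2, the Polycomb complex that places a methyl mark on histone H3 at silent developmental genes. Both lines were sequenced as mESCs in LIF with 2i, the MEK and GSK3 inhibitors (day 0), and as embryoid bodies without LIF and 2i on days 2, 6 and 10. Wildtype mESCs without the FLAG-EED label, kept in LIF alone, are called wildtype LIF. Each of the 9 groups has 2 libraries, 18 in all. The labels name no separate cultures or clones, so the p-values measure the spread between these libraries, which may be technical, and each genotype may be 1 clone. The series' title places the comparison within a question on acetylation of EED by CBP/P300 and on differentiation.

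A homeodomain is a DNA-binding fold that lets these proteins switch gene programmes, and each family marks a region or cell lineage of the embryo: Pax and Lhx genes pattern brain, eye and kidney, Six4 and its relatives build sensory placodes, muscle and kidney with their EYA partners, and Dlx and Msx genes shape ectoderm and facial skeleton under BMP signals. Pitx genes set left-right asymmetry, limb and pituitary identity. Irx genes subdivide neural tube and heart, Nkx genes specify ventral neural tube, heart and gut, Emx and Gbx genes mark cortex and hindbrain, and Meis proteins are cofactors that bind DNA with PBX and Hox proteins. In embryonic stem cells many genes of this kind are known as PRC2 targets with CpG-rich promoters. Pax1 and Pax9 carry a paired domain without a homeodomain, and are kept because the rule takes the whole family.

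Promoter sequence was available in the RefSeq table for 45 of the 62 genes, as 53 promoters. In the 250 bases before the start, these promoters held a median of 16 CpG dinucleotides, against 6 over all 32851 promoters of the table. 43 of the 53 (81.1%) held 10 or more, against 37.8% of all promoters. The 4 windows printed show how dense these promoters are in CpG. They belong to genes whose K19R values are described further on, and no annotated exon overlaps them. Capitals mark each CpG, and each sequence reads 5′ to 3′ towards the start of transcription.
Msx1 upstream, GRCm38.p6 chr5:37824586-37824835, minus strand: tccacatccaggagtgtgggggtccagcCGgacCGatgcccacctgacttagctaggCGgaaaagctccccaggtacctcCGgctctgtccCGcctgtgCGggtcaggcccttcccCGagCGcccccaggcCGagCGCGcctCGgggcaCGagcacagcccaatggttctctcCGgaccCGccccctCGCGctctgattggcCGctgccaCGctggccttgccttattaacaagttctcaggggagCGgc
Six5 upstream, GRCm38.p6 chr7:19094294-19094543, plus strand: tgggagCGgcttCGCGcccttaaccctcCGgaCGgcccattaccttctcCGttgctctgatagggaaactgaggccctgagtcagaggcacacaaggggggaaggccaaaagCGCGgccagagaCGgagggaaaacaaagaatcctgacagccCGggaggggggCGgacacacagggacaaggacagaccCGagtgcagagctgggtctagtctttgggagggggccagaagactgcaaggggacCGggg
Nkx6-2 upstream, GRCm38.p6 chr7:139582798-139583047, minus strand: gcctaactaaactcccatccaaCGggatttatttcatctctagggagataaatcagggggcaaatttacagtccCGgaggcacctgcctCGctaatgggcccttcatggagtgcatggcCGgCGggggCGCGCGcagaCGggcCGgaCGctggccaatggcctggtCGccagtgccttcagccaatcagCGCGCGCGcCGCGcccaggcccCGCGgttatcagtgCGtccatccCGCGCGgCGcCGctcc
Irx2 upstream, GRCm38.p6 chr13:72628570-72628819, plus strand: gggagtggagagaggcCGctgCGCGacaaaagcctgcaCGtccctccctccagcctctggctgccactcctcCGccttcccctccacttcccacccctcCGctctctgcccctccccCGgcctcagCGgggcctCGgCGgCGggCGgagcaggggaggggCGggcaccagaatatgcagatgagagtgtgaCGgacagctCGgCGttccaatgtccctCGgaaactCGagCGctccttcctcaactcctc
The Nkx6-2 window holds 26 CpG, the Msx1 window 20, the Irx2 window 19 and the Six5 window 13. Msx1 and Nkx6-2 were higher in K19R on day 2 and Six5 on days 6 and 10. Irx2 was lower on days 2 and 6, and Nkx6-2 on days 6 and 10. The 4 genes were picked as examples, and a relation between CpG density and direction was not tested.

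Library totals ran from 14190166 to 37375083 assigned read pairs, and 3 counts in a library equal 0.0738 to 0.195 CPM (counts scaled to a common library total), the floor used below. Levels are given as CPM scaled by edgeR's TMM factors over all 18 libraries. Pou5f1, a defining pluripotency gene, averaged 974 CPM in K19R and 932 CPM in FLAG-WT cells on day 0, and 90.3 CPM in K19R and 7.32 CPM in FLAG-WT on day 10. The 13 primitive and visceral endoderm markers summed to 19790.0 to 20110.0 CPM in K19R and 30720.0 to 31120.0 CPM in FLAG-WT embryoid bodies on day 10, so RNA of such endoderm was abundant in both. Most of both sums came from Afp, at 10420 CPM in K19R and 22500 CPM in FLAG-WT. Ttr, at 1942 and 1106 CPM, and Hnf4a, at 391 and 216 CPM, went the other way. Of the 13, 4 were called higher and 4 lower in K19R. On day 2 the sum of the 13 was 331 to 402 CPM in K19R and 3937 to 4009 CPM in FLAG-WT. On day 0 it was 56.7 to 58.8 CPM in K19R, and 34.2 CPM in one FLAG-WT library and 128 CPM in the other. The neuronal gene Dcx was at 0 or near it in all groups, but other neural markers were not. The list of 13 neural markers, Dcx among them, summed to 300 to 318 CPM in K19R and 319 to 330 CPM in FLAG-WT on day 0. Most of that came from Tubb3, at 162 CPM in K19R and 184 CPM in FLAG-WT, and Nes, at 118 and 109 CPM. Eed averaged 191 CPM in K19R and 180.0 CPM in FLAG-WT on day 0; gene counts cannot show the codon change itself. In whole aggregates, fewer cells of a type and less RNA per cell cannot be told apart.

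The 62 genes were mostly low. Their median level was 0.26 to 0.96 CPM in each group, against 7.5 to 10.3 CPM for all genes tested, and 19 to 29 of the 62 reached 1 CPM in a given group. The 62 include 12 genes that did not pass the filter on low counts, while all genes tested passed it, which widens the gap between the medians. Levels between genes were ordered per kilobase of exon (CPM per kb, mean ± SD, n = 2). The length includes exon bases shared with other genes, where overlapping read pairs were not counted. The level per kb of a gene with such bases can therefore be too low, most of all for Gbx2, with 43.5% shared. In wildtype LIF cells the order was led by Gbx2 at 7.85 ± 0.468 and Six4 at 5.3 ± 0.409. In K19R cells on day 0 it was led by Meis2 at 6.62 ± 0.37 and Six4 at 5.39 ± 0.396, and in FLAG-WT cells by Nkx2-9 at 5.76 ± 0.534 and Meis2 at 5.75 ± 0.171, with the FLAG-WT pair within their spread. On day 2, Six4 at 11.8 ± 1.23 was among the highest in K19R, and Lhx1 at 7.8 ± 0.323 and Six4 at 7.51 ± 0.474 in FLAG-WT, the FLAG-WT pair within their spread. By day 10, Msx2 at 10.1 ± 2.13 and Pitx1 at 9.91 ± 2.42 were among the highest in K19R and lay within their spread. Msx2 at 13.4 ± 0.731 led in FLAG-WT on that day, and Pitx1 at 4.23 ± 0.174 lay below it. The 12 genes that did not pass the filter on low counts, and were not tested, were Dlx6, Emx1, Irx6, Lhx3, Lhx4, Lhx8, Nkx1-1, Nkx2-1, Nkx2-6, Nkx3-2, Pax4 and Six6, none of which reached more than 12 counts in a library.

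**Figure D1:**
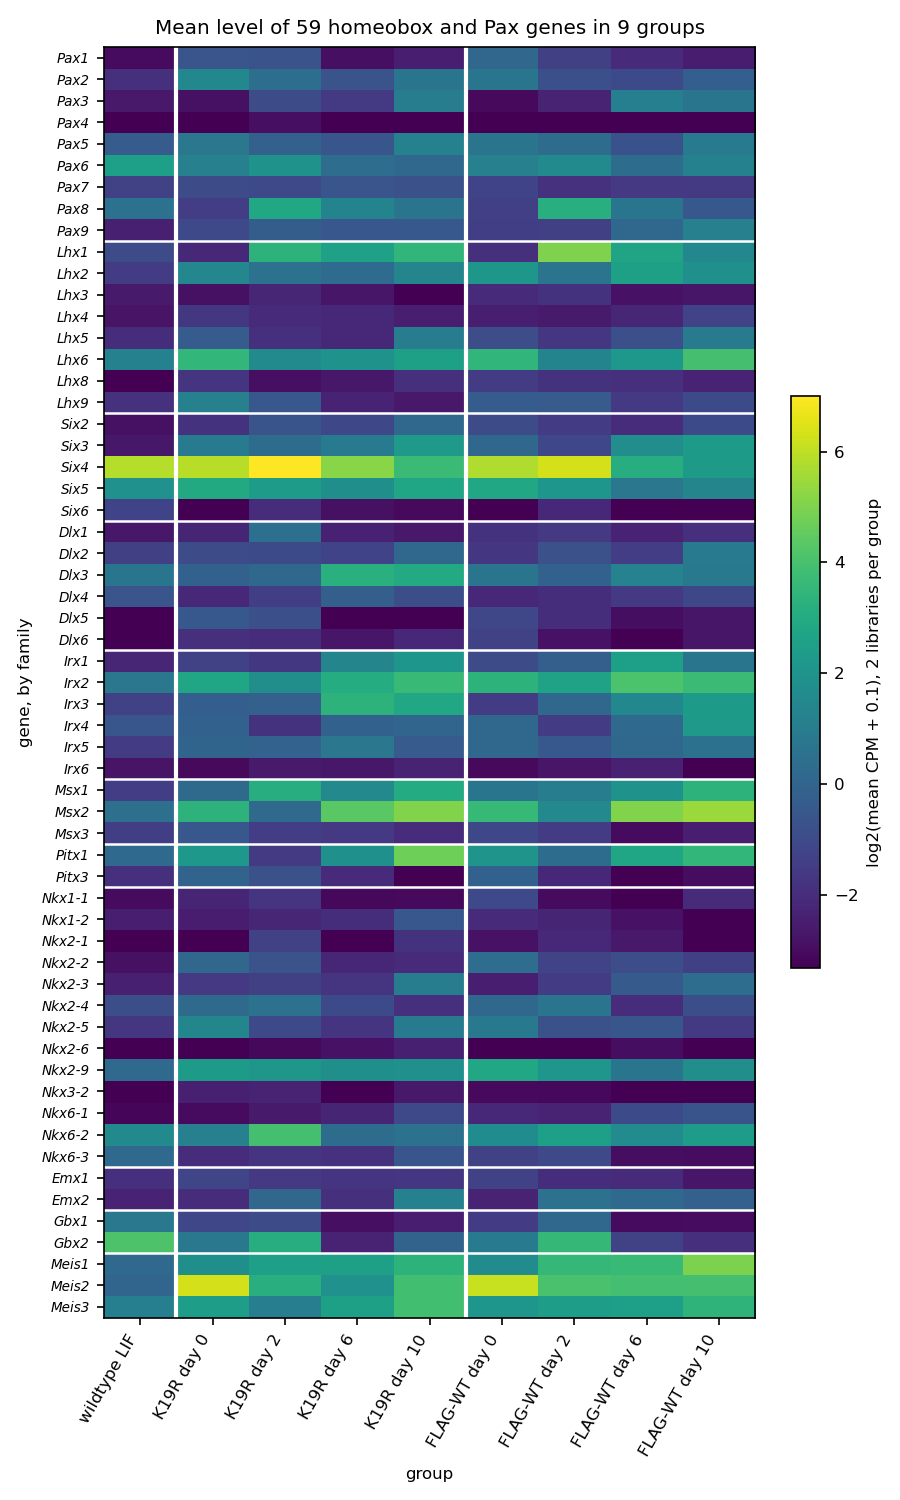
Mean level of 59 of the genes (rows, by family) in the 9 groups (columns), as log2 of the mean CPM of 2 libraries plus 0.1; yellow is high and dark blue is low. Six4, Meis2 and Msx2 hold bright cells, and Meis2 is bright in both day 0 groups and dark in wildtype LIF.

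K19R and FLAG-WT were compared on each day to ask how the homeobox genes respond when the EED residue is changed. Of the 50 genes tested, 2 were higher and 2 lower in K19R on day 0, 10 and 10 on day 2, 11 and 15 on day 6, and 18 and 9 on day 10 (edgeR quasi-likelihood test, Benjamini-Hochberg adjusted p under 0.05 over all genes tested). Over all 19092 genes tested, 10.5%, 41.8%, 58.5% and 58.4% were called on those days, against 8%, 40%, 52% and 54% of the 50. The shares of these genes were therefore near or below the background on every day, and their number alone says nothing particular about them. Of all genes tested, those called higher were 5.51%, 20%, 28.4% and 33.2%, and those called lower 4.98%, 21.8%, 30.1% and 25.2%. The median log2 change of the 50 was 0.07, 0.03, -0.18 and 0.18, beside 0.00, 0.00, 0.02 and 0.13 over all genes. TMM and plain library totals set the zero differently late in the course: totals moved the median of all genes by 0.36 on day 6 and 0.30 on day 10, and the share of calls in the higher direction to 72.9% from 48.6% and to 77% from 56.9%. With totals the 50 genes gave 16 higher and 12 lower on day 6, and 19 and 7 on day 10, with no gene reversed among those called.

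**Figure D2:**
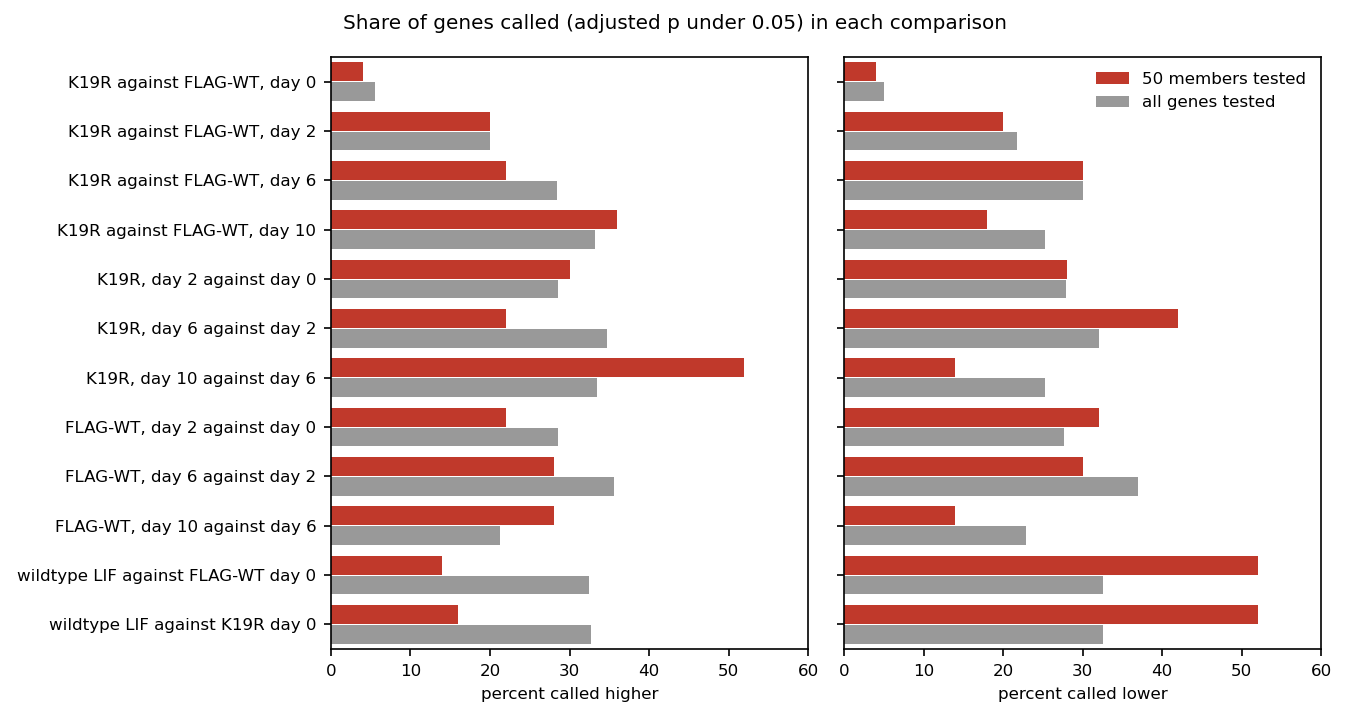
Percent of the 50 genes tested (red) and of all genes tested (grey) called higher (left) or lower (right) at adjusted p under 0.05, for each comparison (rows). The red and grey bars lie close together for K19R against FLAG-WT, while 52% of the 50 genes against 32.5% of all genes were lower in wildtype LIF cells.

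Over the 4 days, 42 of the 50 genes were called on at least 1 day, 84% of them beside 82.4% of all genes tested. Of these 42, 16 were only higher in K19R, 13 were only lower, and 13 were called higher on one day and lower on another. These are 32%, 26% and 26% of the 50, beside 33.9%, 28.3% and 20.2% of all genes, so the count says nothing particular about these genes. The fit of the 16 FLAG-EED libraries has 8 residual degrees of freedom. On day 2, 12 of 20 calls held under every alternative processing and with each library left out in turn, as did 18 of 26 on day 6 and 16 of 27 on day 10, but none of the 4 on day 0.

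**Figure D3:**
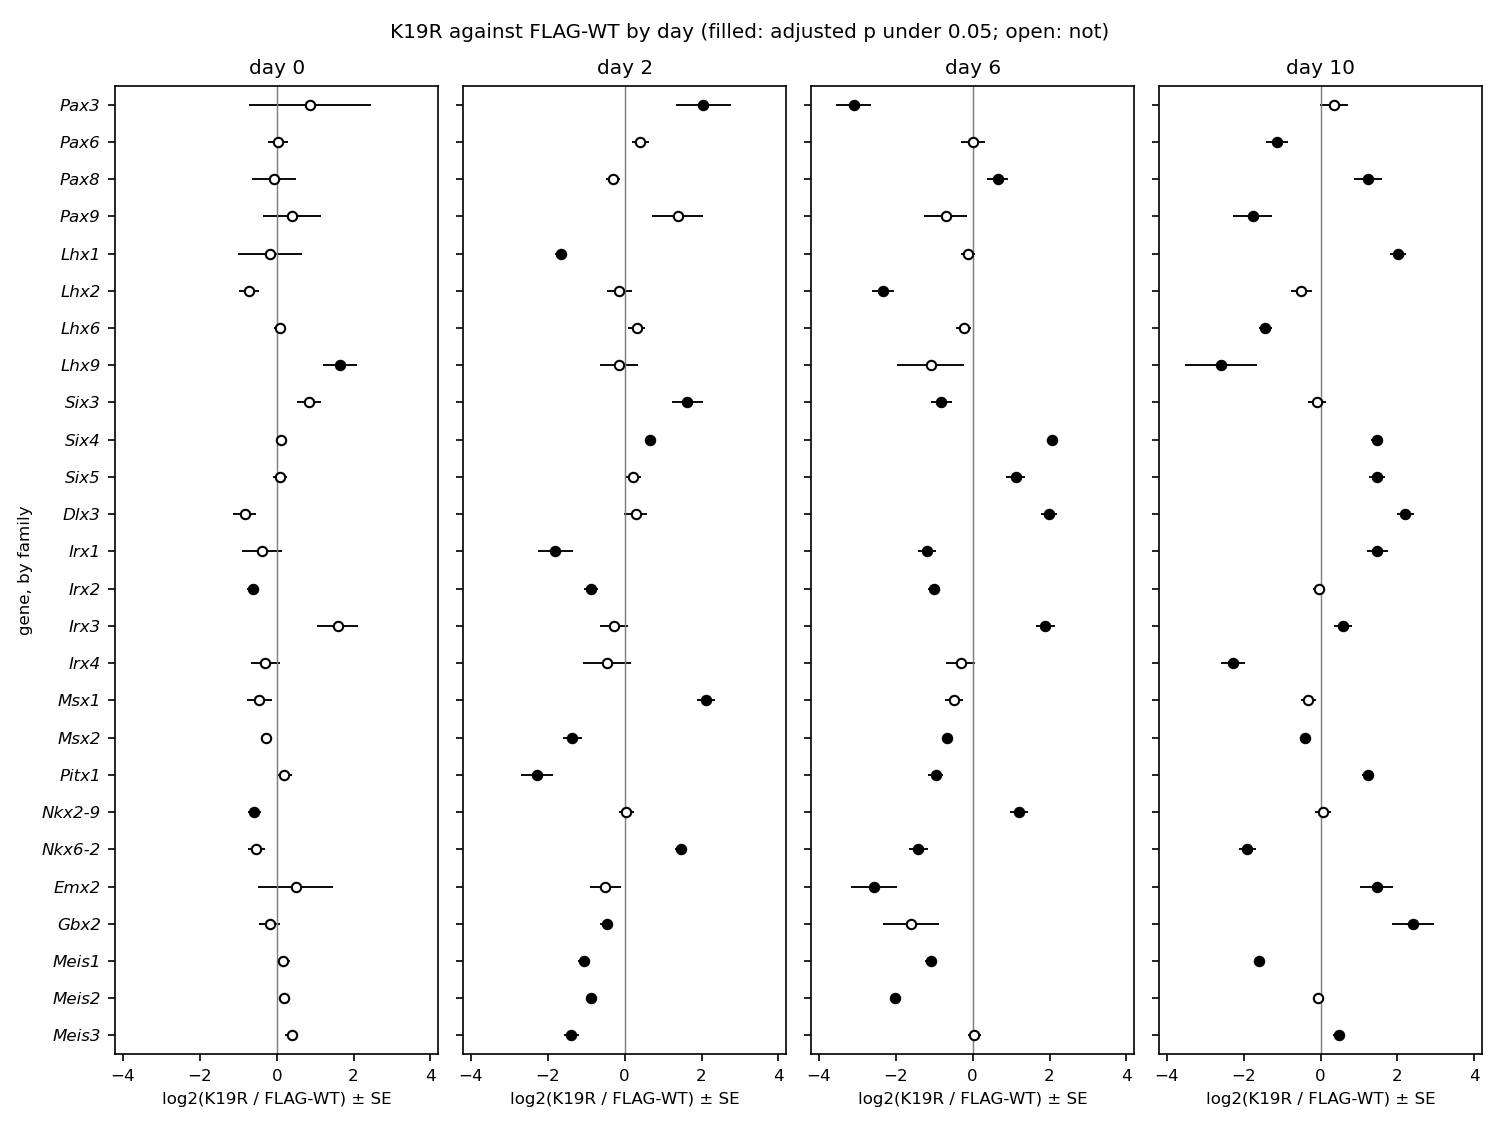
Log2 change of K19R against FLAG-WT (x axis, with SE) on days 0, 2, 6 and 10 for 26 genes called at least once with a mean of 2 CPM or more in a group (rows, by family); filled points passed adjusted p under 0.05. Six4 lies right of 0 on days 2, 6 and 10, Meis1 lies left of it on those days, and Pitx1 and Irx1 cross from left on day 6 to right on day 10.

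Six4, a transcription factor that acts with EYA proteins in muscle and kidney, was higher in K19R on all 3 days of differentiation. Six4 had 55.4 and 61.5 CPM on day 0, 137 and 118 CPM on day 2, 36.9 and 34.5 CPM on day 6 and 13.7 and 12.6 CPM on day 10 in K19R libraries, against 54.1 and 54.2, 77.9 and 85.2, 9.35 and 7.49 and 4.54 and 5.03 CPM on the same days in FLAG-WT libraries. The groups overlapped on no day, and both genotypes peaked on day 2. Its log2 change was 0.65 ± 0.09 (SE, edgeR adjusted p = 7.3e-07) on day 2, 2.07 ± 0.11 (adjusted p = 2.8e-14) on day 6 and 1.46 ± 0.14 (adjusted p = 1.5e-09) on day 10. On day 0 it did not pass the threshold, with a log2 change of 0.11. Six4 sits on chromosome 12 at chr12:73099609-73113456 (GRCm38).

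Six5, a relative expressed in muscle and lens, was higher in K19R late in the course. Six5 had 3.61 and 3.2 CPM in K19R libraries, against 1.35 and 1.83 CPM in FLAG-WT libraries on day 6 (log2 change 1.12 ± 0.25 (SE), edgeR adjusted p = 0.00038). On day 10 it had 6.86 and 6.9 CPM in K19R libraries, against 2.8 and 2.16 CPM in FLAG-WT libraries (log2 change 1.47 ± 0.21 (SE), edgeR adjusted p = 1.9e-06). The groups were apart on both days and overlapped on day 2. Six3, a forebrain and eye gene, had 0.843 and 1.48 CPM in K19R libraries, against 0.436 and 0.314 CPM in FLAG-WT libraries on day 2 (log2 change 1.63 ± 0.40 (SE), edgeR adjusted p = 0.0018), a call lost without K19R day 2 replicate 2 (log2 change 1.19, adjusted p = 0.057). On day 6 the order was the other way round, with 1.46 and 2.17 CPM in K19R libraries, against 3.3 and 3.13 CPM in FLAG-WT libraries (log2 change -0.81 ± 0.27 (SE), edgeR adjusted p = 0.012). The call was lost with scaling by library totals only (adjusted p = 0.15), without FLAG-WT day 6 replicate 1 (log2 change -0.77, adjusted p = 0.066) and without K19R day 6 replicate 1 (log2 change -0.56, adjusted p = 0.14). Six2, which maintains nephron progenitors, was called higher on day 10 at 0.968 and 1.03 CPM in K19R libraries, against 0.369 and 0.433 CPM in FLAG-WT libraries. This call was lost in DESeq2 (adjusted p = 0.1) and without any 1 of the 4 libraries (adjusted p = 0.059 to 0.12).

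Most pluripotency markers were also higher in K19R late in the course. The 8 markers summed to 678 to 745 CPM in K19R and 428 to 452 CPM in FLAG-WT on day 6, and 772 to 916 CPM in K19R and 470.0 to 501 CPM in FLAG-WT on day 10. Of these, 6 of 8 were called higher and 2 lower on each of those days, and none of the 8 was at 0 throughout a group. The 2 lower ones, Klf4 and Tfcp2l1, made up most of the FLAG-WT sum on day 10. They averaged 143.4 and 167.7 CPM in K19R and 202.5 and 229.7 CPM in FLAG-WT. Among the 6 higher ones, Nanog averaged 95.5 CPM in K19R and 5.11 CPM in FLAG-WT on day 10. Sox2 averaged 104 and 2.35 CPM there, and Esrrb 81.9 and 3.1 CPM. Six4 was high in undifferentiated cells too, and the part of remaining undifferentiated cells in its late difference was not tested. On day 2 the 8 markers summed to 1494 to 1591 CPM in K19R and 2051 to 2067 CPM in FLAG-WT. At that time 5 of the 8 were lower in K19R and 1 was higher.

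**Figure D4:**
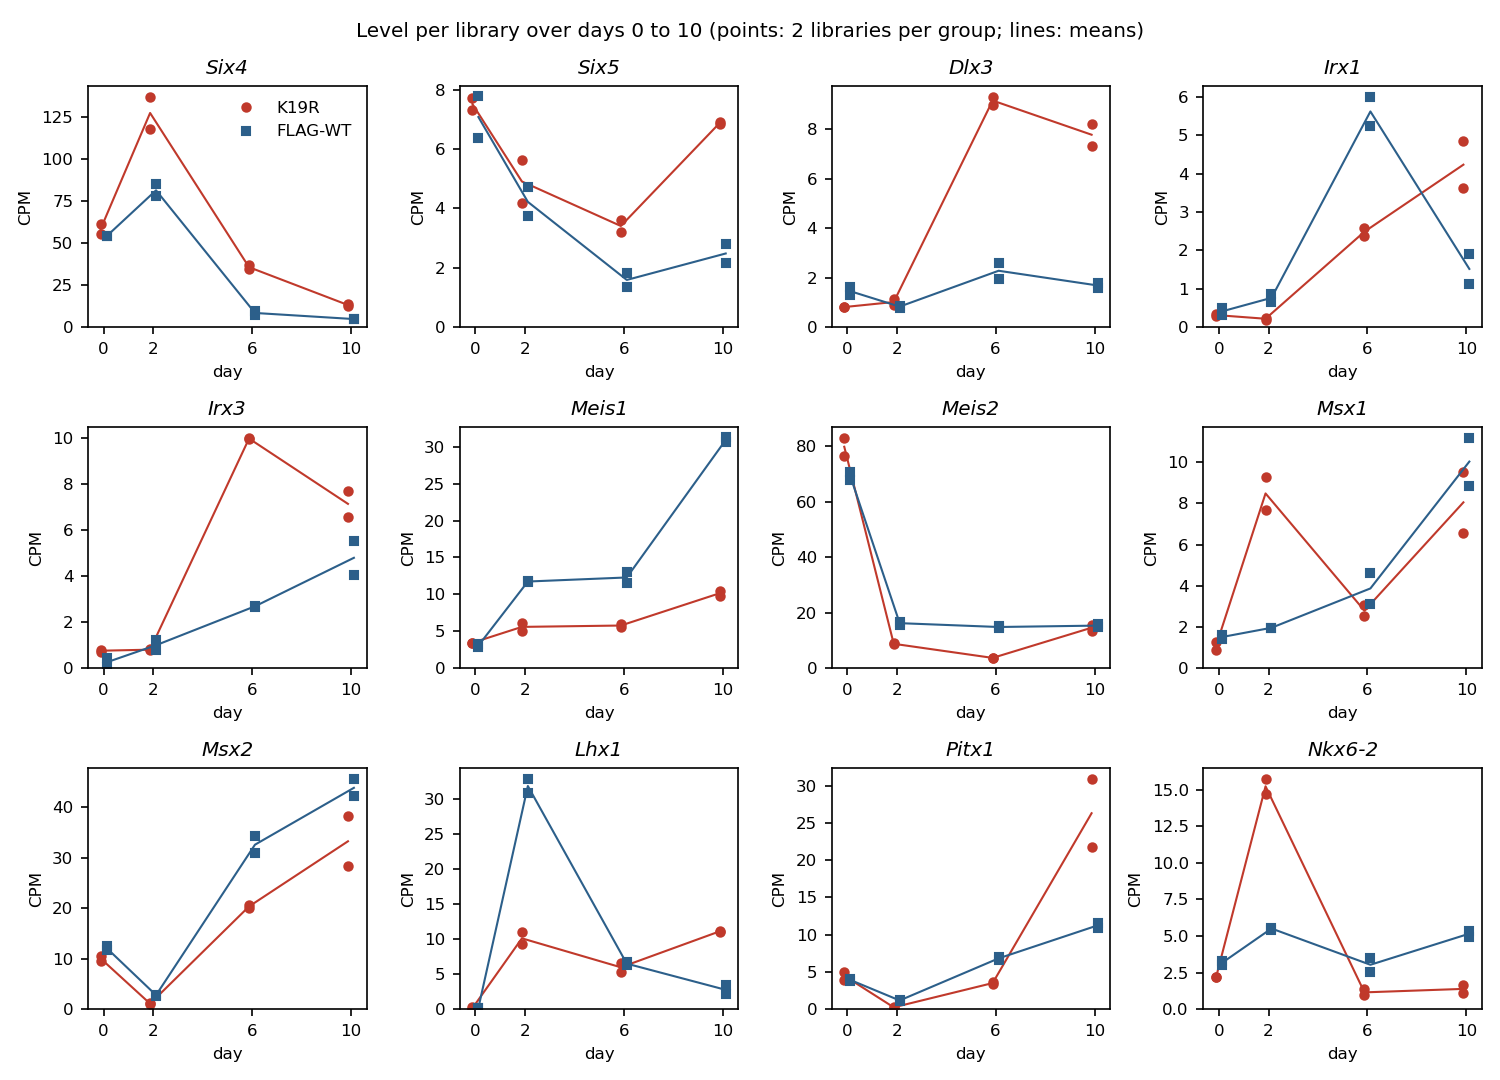
CPM of 12 genes (panels) on days 0, 2, 6 and 10, with 1 point per library (red circles K19R, blue squares FLAG-WT) and lines through the means of 2. Six4 peaks on day 2 higher in K19R, Meis1 ends at 9.84 and 10.5 CPM in K19R and 30.6 and 31.3 CPM in FLAG-WT, and the Pitx1 and Irx1 lines cross between days 6 and 10.

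Among the ectodermal and BMP-responsive genes, Dlx3, which is needed in placenta and skin, was much higher in K19R embryoid bodies. Dlx3 had 9 and 9.32 CPM in K19R libraries, against 2.61 and 1.95 CPM in FLAG-WT libraries on day 6 (log2 change 1.99 ± 0.20 (SE), edgeR adjusted p = 3.4e-09). Dlx3 had 8.23 and 7.33 CPM in K19R libraries, against 1.58 and 1.78 CPM in FLAG-WT libraries on day 10 (log2 change 2.21 ± 0.22 (SE), edgeR adjusted p = 2.8e-09). The K19R libraries were above every FLAG-WT library on both days, and on day 0 they were below them, without passing the threshold (0.82 and 0.8 CPM in K19R against 1.63 and 1.28 CPM in FLAG-WT). Its neighbour Dlx4, 15.2 kb away on the opposite strand, was called higher with it on day 6, at 0.649 and 0.89 CPM in K19R libraries, against 0.304 and 0.177 CPM in FLAG-WT libraries. It fell short of the threshold in DESeq2 (adjusted p = 0.06), without FLAG-WT day 6 replicate 2 (log2 change 1.32, adjusted p = 0.096) and without K19R day 6 replicate 2 (log2 change 1.37, adjusted p = 0.1). Dlx1, an interneuron gene, had 0.843 and 1.72 CPM in K19R libraries, against 0.348 and 0.105 CPM in FLAG-WT libraries on day 2 (log2 change 2.54 ± 0.60 (SE), edgeR adjusted p = 0.0013). The difference was lost without FLAG-WT day 2 replicate 2 (log2 change 1.85, adjusted p = 0.064) and without K19R day 2 replicate 2 (log2 change 1.94, adjusted p = 0.058). Dlx2 and Dlx5 were not called on any day. The 7 trophoblast markers summed to 39.8 to 40.2 CPM in K19R and 16.4 to 19.9 CPM in FLAG-WT on day 6, and to 53.1 to 54.6 CPM in K19R and 18.2 to 19.7 CPM in FLAG-WT on day 10. In stem cells on day 0 they summed to more, 82.1 to 89.7 CPM in K19R and 69.9 to 70.3 CPM in FLAG-WT, so the list does not mark trophoblast alone. Among them Hand1, also a mesoderm marker, averaged 19.8 CPM in K19R and 1.04 CPM in FLAG-WT on day 10. Of the 6 trophoblast markers tested, 5 were higher on day 6 and 4 on day 10, with none lower; in FLAG-WT 2 of the 7 were at 0 on day 6 and 1 on day 10, and in K19R none. The 8 surface ectoderm markers summed to 1170 to 1234 CPM in K19R and 1773 to 1784 CPM in FLAG-WT on day 6. On day 10 they summed to 1165 to 1168 CPM in K19R and 2294 to 2538 CPM in FLAG-WT. This list was already at 742 to 765 CPM in K19R and 651 to 662 CPM in FLAG-WT stem cells on day 0, so it does not mark surface ectoderm alone. Of these 8, 1 was higher and 3 lower in K19R on day 6, and 2 and 4 on day 10. In FLAG-WT 1 of the 8 was at 0 on day 6. The part of either marker list in the Dlx3 difference was not tested.

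Msx1 and Msx2, closely related repressors downstream of BMP, moved in opposite directions on day 2. Msx1 had 9.28 and 7.68 CPM in K19R libraries, against 1.96 and 1.95 CPM in FLAG-WT libraries (log2 change 2.12 ± 0.22 (SE), edgeR adjusted p = 2.2e-08). Msx2 had 0.908 and 1.24 CPM in K19R libraries, against 2.88 and 2.65 CPM in FLAG-WT libraries on the same day (log2 change -1.36 ± 0.24 (SE), edgeR adjusted p = 4.4e-05). Neither pair of groups overlapped. Msx1 then had 2.51 and 3.06 and 6.57 and 9.52 CPM in K19R on days 6 and 10, against 4.61 and 3.13 and 8.86 and 11.2 CPM in FLAG-WT, with no call on either day. Msx2 kept the lower K19R level on day 6, with 20.6 and 20.1 CPM in K19R libraries, against 34.3 and 30.9 CPM in FLAG-WT libraries (log2 change -0.68 ± 0.12 (SE), edgeR adjusted p = 1.9e-05). On day 10 it had 28.3 and 38.2 CPM in K19R libraries, against 45.5 and 42.1 CPM in FLAG-WT libraries (log2 change -0.40 ± 0.11 (SE), edgeR adjusted p = 0.0036). The threshold was missed with scaling by library totals only (adjusted p = 0.45) and without K19R day 10 replicate 1 (log2 change -0.19, adjusted p = 0.18). Msx3, a dorsal neural tube gene, was called higher on day 6 on 12 counts in K19R against 1 in FLAG-WT, a ratio of 9.09 with a 95% counting interval of 1.34 to 388. That call was lost in DESeq2 (adjusted p = 0.081) and without any 1 of the 4 libraries (adjusted p = 0.063 to 0.17).

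Pitx1 and Irx1 were lower in K19R on days 2 and 6 and higher on day 10. Pitx1, a hindlimb and pituitary gene, had 5 and 3.95 CPM on day 0, 0.162 and 0.309 CPM on day 2, 3.65 and 3.35 CPM on day 6 and 21.8 and 30.9 CPM on day 10 in K19R libraries, against 4.09 and 3.76, 1.13 and 1.19, 6.61 and 7.02 and 10.9 and 11.6 CPM on the same days in FLAG-WT libraries. K19R was below FLAG-WT on day 2 (log2 change -2.29 ± 0.41 (SE), edgeR adjusted p = 6.4e-05) and day 6 (log2 change -0.96 ± 0.19 (SE), edgeR adjusted p = 0.00012), and above it on day 10 (log2 change 1.22 ± 0.15 (SE), edgeR adjusted p = 1.6e-07). The groups were apart on these 3 days. Pitx3, a gene of lens and dopamine neurons, was low, with 0.26 and 0.72 CPM in K19R libraries, against 0.0436 and 0.209 CPM in FLAG-WT libraries on day 2 (log2 change 1.81 ± 0.71 (SE), edgeR adjusted p = 0.043). The Pitx3 call was lost in DESeq2 (adjusted p = 0.099), without FLAG-WT day 2 replicate 1 (adjusted p = 0.29) and without K19R day 2 replicate 2 (log2 change 0.93, adjusted p = 0.49). On day 6 it was called higher on 7 counts in K19R and 0 in FLAG-WT, too few for a fold, and this was lost without any 1 of the 4 libraries (adjusted p = 0.061 to 0.18).

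Irx1 and Irx2, members of the Iroquois cluster on chromosome 13 that pattern neural and cardiac fields, were lower in K19R on days 2 and 6. Irx1 had 0.195 and 0.24 CPM in K19R libraries, against 0.653 and 0.872 CPM in FLAG-WT libraries on day 2 (log2 change -1.81 ± 0.46 (SE), edgeR adjusted p = 0.0023). Irx1 had 2.6 and 2.38 CPM in K19R libraries, against 6 and 5.25 CPM in FLAG-WT libraries on day 6 (log2 change -1.18 ± 0.24 (SE), edgeR adjusted p = 0.00012). On day 10 Irx1 had 3.63 and 4.85 CPM in K19R libraries, against 1.9 and 1.14 CPM in FLAG-WT libraries, the opposite order (log2 change 1.47 ± 0.27 (SE), edgeR adjusted p = 4.8e-05). Irx2 had 3.24 and 3.33 CPM in K19R libraries, against 5.84 and 6.21 CPM in FLAG-WT libraries on day 2 (log2 change -0.88 ± 0.17 (SE), edgeR adjusted p = 0.00022). Irx2 had 8.47 and 8.33 CPM in K19R libraries, against 18.1 and 15.5 CPM in FLAG-WT libraries on day 6 (log2 change -1.004 ± 0.15 (SE), edgeR adjusted p = 1.5e-06). By day 10 Irx2 stood at 10.9 and 14.2 CPM in K19R and 12.8 and 13.1 CPM in FLAG-WT, with overlapping groups. On day 0 its K19R level was also lower, at 5.71 and 7.71 CPM in K19R libraries, against 9.51 and 10.8 CPM in FLAG-WT libraries (log2 change -0.61 ± 0.16 (SE), edgeR adjusted p = 0.012). The call was lost without FLAG-WT day 0 replicate 2 (log2 change -0.52, adjusted p = 0.15) and without K19R day 0 replicate 1 (log2 change -0.40, adjusted p = 0.28).

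The other Iroquois genes did not move together. Irx3 had 9.97 and 9.96 CPM in K19R libraries, against 2.65 and 2.71 CPM in FLAG-WT libraries on day 6 (log2 change 1.90 ± 0.24 (SE), edgeR adjusted p = 1.5e-07), higher in every K19R library. On day 10 it had 7.7 and 6.56 CPM in K19R libraries, against 4.06 and 5.52 CPM in FLAG-WT libraries (log2 change 0.58 ± 0.23 (SE), edgeR adjusted p = 0.033). This call was lost with RLE size factors (adjusted p = 0.055), in DESeq2 (adjusted p = 0.081), without FLAG-WT day 10 replicate 1 (log2 change 0.37, adjusted p = 0.25) and without K19R day 10 replicate 1 (log2 change 0.46, adjusted p = 0.16). Irx4, a gene of ventricular heart muscle, had 1.09 and 0.772 CPM in K19R libraries, against 5.38 and 3.79 CPM in FLAG-WT libraries on day 10 (log2 change -2.29 ± 0.31 (SE), edgeR adjusted p = 7.2e-07). The 10 cardiac muscle markers summed to 56.6 to 58.3 CPM in K19R and 147 to 184 CPM in FLAG-WT on that day. Of the 10, 3 were called higher and 4 lower, and none was at 0 throughout a group. Most of the FLAG-WT sum came from Tnnc1, at 34.4 CPM in K19R and 92.7 CPM in FLAG-WT, and Myh7, at 4.46 and 57.6 CPM. The part of these markers in the Irx4 difference was not tested. Irx5 was called lower on day 10 at 0.847 and 0.515 CPM in K19R libraries, against 1.32 and 1.41 CPM in FLAG-WT libraries. It fell short of the threshold with scaling by library totals only (adjusted p = 0.11), without FLAG-WT day 10 replicate 1 (log2 change -1.03, adjusted p = 0.06), without FLAG-WT day 10 replicate 2 (log2 change -0.94, adjusted p = 0.096) and without K19R day 10 replicate 2 (log2 change -0.68, adjusted p = 0.2).

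Meis1 and Meis2, cofactors that bind DNA together with PBX and Hox proteins, were lower in K19R during differentiation. Meis1 had 3.43 and 3.43 CPM on day 0, 5 and 6.17 CPM on day 2, 5.59 and 5.94 CPM on day 6 and 9.84 and 10.5 CPM on day 10 in K19R libraries, against 3.29 and 2.8, 11.7 and 11.8, 13 and 11.6 and 30.6 and 31.3 CPM on the same days in FLAG-WT libraries. K19R libraries were below both FLAG-WT libraries on days 2, 6 and 10, when the log2 changes were -1.07 ± 0.13 (edgeR adjusted p = 2.7e-07), -1.09 ± 0.14 (adjusted p = 1.3e-07) and -1.61 ± 0.12 (adjusted p = 2e-11). Meis2 had 76.6 and 82.9 CPM on day 0, 8.92 and 8.57 CPM on day 2, 3.81 and 3.52 CPM on day 6 and 13.5 and 15.6 CPM on day 10 in K19R libraries, against 70.7 and 67.8, 15.6 and 16.8, 14.3 and 15.3 and 14.9 and 15.7 CPM on the same days in FLAG-WT libraries. It was lower in K19R on day 2 (log2 change -0.89 ± 0.10 (SE), edgeR adjusted p = 1.3e-07) and on day 6 (log2 change -2.01 ± 0.13 (SE), edgeR adjusted p = 4.1e-13), and the groups overlapped on day 10. Meis3, the remaining family member, was lower in K19R on day 2, at 1.88 and 2.13 CPM in K19R libraries, against 5.4 and 5.09 CPM in FLAG-WT libraries (log2 change -1.39 ± 0.19 (SE), edgeR adjusted p = 1.1e-06). On day 10 it had 16 and 13.3 CPM in K19R libraries, against 9.86 and 11.1 CPM in FLAG-WT libraries (log2 change 0.48 ± 0.14 (SE), edgeR adjusted p = 0.0064). The difference was lost without FLAG-WT day 10 replicate 1 (log2 change 0.40, adjusted p = 0.06) and without K19R day 10 replicate 1 (log2 change 0.35, adjusted p = 0.096). In the annotation, 18.3% of Meis1's exon bases are shared with Gm16140 on the opposite strand or Gm37818 on the same strand, and pairs lying wholly there were not counted for either gene.

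Of the Lhx genes, Lhx1 differed in both directions. Lhx1, which acts in head formation, anterior visceral endoderm and kidney, had 0.261 and 0 CPM on day 0, 10.9 and 9.23 CPM on day 2, 6.57 and 5.34 CPM on day 6 and 11.1 and 11.1 CPM on day 10 in K19R libraries, against 0.167 and 0.16, 30.9 and 32.7, 6.22 and 6.73 and 3.38 and 2.11 CPM on the same days in FLAG-WT libraries. On day 2 both K19R libraries were far below both FLAG-WT libraries (log2 change -1.66 ± 0.15 (SE), edgeR adjusted p = 1.8e-09). On day 10 the order was reversed (log2 change 2.01 ± 0.21 (SE), edgeR adjusted p = 6.6e-09), and on day 6 the groups overlapped. All but 1 of the 13 primitive and visceral endoderm markers were lower in K19R on day 2 too, with the sums given above and none at 0 throughout a group; their part in the Lhx1 difference was not tested. On day 10, 4 of those markers were higher and 4 lower.

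Lhx2, a gene of eye field and forebrain, had 1.38 and 0.89 CPM in K19R libraries, against 5.3 and 6.2 CPM in FLAG-WT libraries on day 6 (log2 change -2.34 ± 0.29 (SE), edgeR adjusted p = 9.7e-08). Lhx6, which specifies cortical interneurons, had 5.93 and 5.58 CPM in K19R libraries, against 16.9 and 14.2 CPM in FLAG-WT libraries on day 10 (log2 change -1.44 ± 0.17 (SE), edgeR adjusted p = 8.1e-08). Both were lower in each K19R library than in any FLAG-WT library on those days. Of the 11 neural markers tested, 7 were higher in K19R on each of days 6 and 10, and 0 and 1 lower. The 13 neural markers summed to 127 to 134 CPM in K19R and 65.9 to 77 CPM in FLAG-WT on day 6. On day 10 the sum ran the other way, at 67.3 to 74 CPM in K19R and 159.9 to 182 CPM in FLAG-WT, most of it from Nes, a neural progenitor filament, at 47.3 CPM in K19R and 165 CPM in FLAG-WT. These sums all lay below those of the stem cells on day 0 given above. The part of the neural markers in the Lhx2 and Lhx6 differences was not tested. Lhx9, a gonad gene, had 2.2 and 2.16 CPM in K19R libraries, against 0.709 and 0.679 CPM in FLAG-WT libraries on day 0 (log2 change 1.65 ± 0.43 (SE), edgeR adjusted p = 0.015). That difference was lost without any 1 of the 4 libraries, with adjusted p-values of 0.072 to 0.11. On day 10 Lhx9 was near the floor, at 3 counts in K19R and 15 in FLAG-WT, a ratio of 0.156 with a 95% counting interval of 0.0289 to 0.55. The threshold was missed without FLAG-WT day 10 replicate 2 (log2 change -2.47, adjusted p = 0.075) and without K19R day 10 replicate 1 (log2 change -2.15, adjusted p = 0.11). Lhx5, a forebrain gene, was lower on day 6, at 0.0811 and 0.178 CPM in K19R libraries, against 0.478 and 0.472 CPM in FLAG-WT libraries (log2 change -1.80 ± 0.62 (SE), edgeR adjusted p = 0.015). That call was lost without FLAG-WT day 6 replicate 1 (log2 change -1.79, adjusted p = 0.064) and without K19R day 6 replicate 1 (log2 change -1.39, adjusted p = 0.11).

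The Pax genes split in direction, and most were low. Pax2, a kidney and midbrain gene, had 1.2 and 1.24 CPM in K19R libraries, against 0.523 and 0.418 CPM in FLAG-WT libraries on day 2 (log2 change 1.38 ± 0.42 (SE), edgeR adjusted p = 0.011), a call lost without FLAG-WT day 2 replicate 2 (log2 change 1.21, adjusted p = 0.1). Pax2 was again higher on day 10, at 1.13 and 1.93 CPM in K19R libraries, against 0.422 and 1.08 CPM in FLAG-WT libraries (log2 change 1.02 ± 0.41 (SE), edgeR adjusted p = 0.038). The day 10 call was lost in DESeq2 (adjusted p = 0.087), in a fit of the 4 libraries of both groups alone (adjusted p = 0.082), without FLAG-WT day 10 replicate 1 (log2 change 0.49, adjusted p = 0.38) and without K19R day 10 replicate 2 (log2 change 0.59, adjusted p = 0.34). Both Pax2 comparisons had the K19R libraries above the FLAG-WT libraries. Pax3, a gene of neural crest and muscle precursors, was higher in K19R on day 2, at 0.389 and 0.446 CPM in K19R libraries, against 0.0871 and 0.105 CPM in FLAG-WT libraries (log2 change 2.05 ± 0.70 (SE), edgeR adjusted p = 0.021). This low-level call was lost without FLAG-WT day 2 replicate 1 (log2 change 1.95, adjusted p = 0.098), without FLAG-WT day 2 replicate 2 (log2 change 2.19, adjusted p = 0.1) and without K19R day 2 replicate 2 (log2 change 1.96, adjusted p = 0.08). Pax3 had 0.162 and 0.32 CPM in K19R libraries, against 2.78 and 1.42 CPM in FLAG-WT libraries on day 6 (log2 change -3.10 ± 0.47 (SE), edgeR adjusted p = 2.6e-06). Pax3 had 1.77 and 2.02 CPM in K19R and 1.37 and 1.62 CPM in FLAG-WT on day 10, with no call. Pax6, the eye and forebrain regulator, had 1.05 and 0.943 CPM in K19R libraries, against 1.85 and 2.54 CPM in FLAG-WT libraries on day 10 (log2 change -1.13 ± 0.29 (SE), edgeR adjusted p = 0.0019). The K19R libraries were lower than both FLAG-WT libraries there. Pax9, a pharyngeal pouch gene, had 0.565 and 0.686 CPM in K19R libraries, against 1 and 3.3 CPM in FLAG-WT libraries (log2 change -1.77 ± 0.52 (SE), edgeR adjusted p = 0.0049), and 1 library decided that value: the call was lost without FLAG-WT day 10 replicate 2 (log2 change -0.67, adjusted p = 0.4). Pax8, a kidney and thyroid gene, had 7.49 and 7.03 CPM in K19R and 8.32 and 9.62 CPM in FLAG-WT at its day 2 peak, with no call. On day 6 it had 2.47 and 2.38 CPM in K19R libraries, against 1.65 and 1.42 CPM in FLAG-WT libraries (log2 change 0.65 ± 0.27 (SE), edgeR adjusted p = 0.042). The call was lost with no filter on low counts (adjusted p = 0.059), in DESeq2 (adjusted p = 0.064) and without any 1 of the 4 libraries (adjusted p = 0.079 to 0.17). On day 10 Pax8 had 1.29 and 1.63 CPM in K19R libraries, against 0.369 and 0.865 CPM in FLAG-WT libraries (log2 change 1.24 ± 0.36 (SE), edgeR adjusted p = 0.0052), a call lost without FLAG-WT day 10 replicate 1 (log2 change 0.75, adjusted p = 0.12).

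Among the 10 Nkx genes tested, Nkx6-2 is a gene of ventral neural tube and oligodendrocytes that differed in both directions. Nkx6-2 had 2.2 and 2.16 CPM on day 0, 14.7 and 15.7 CPM on day 2, 0.932 and 1.35 CPM on day 6 and 1.09 and 1.67 CPM on day 10 in K19R libraries, against 3 and 3.32, 5.58 and 5.44, 3.52 and 2.54 and 4.96 and 5.35 CPM on the same days in FLAG-WT libraries. K19R was higher on day 2 (log2 change 1.47 ± 0.16 (SE), edgeR adjusted p = 5.8e-08), and lower on day 6 (log2 change -1.41 ± 0.25 (SE), edgeR adjusted p = 2.9e-05) and day 10 (log2 change -1.91 ± 0.23 (SE), edgeR adjusted p = 1.1e-07), with no overlap on these 3 days. In the annotation 12.9% of its exon bases are shared with Inpp5a on the opposite strand, where the unstranded counting drops read pairs. Nkx2-9, a floor plate gene, had 4.01 and 2.88 CPM in K19R libraries, against 1.35 and 1.65 CPM in FLAG-WT libraries on day 6 (log2 change 1.21 ± 0.24 (SE), edgeR adjusted p = 0.0001). On day 0 Nkx2-9 was lower in K19R, at 4.59 and 5.17 CPM in K19R libraries, against 6.8 and 7.75 CPM in FLAG-WT libraries (log2 change -0.58 ± 0.18 (SE), edgeR adjusted p = 0.035). This call was lost in DESeq2 (adjusted p = 0.077) and without any 1 of the 4 libraries (adjusted p = 0.081 to 0.27).

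Other Nkx genes called were low. Nkx2-5, the early heart regulator, had 1.73 and 1.8 CPM in K19R libraries, against 0.317 and 0.162 CPM in FLAG-WT libraries on day 10 (log2 change 2.85 ± 0.52 (SE), edgeR adjusted p = 4.3e-05). On day 6 Nkx2-5 was lower in K19R, at 0.162 and 0.249 CPM in K19R libraries, against 0.739 and 0.413 CPM in FLAG-WT libraries (log2 change -1.49 ± 0.61 (SE), edgeR adjusted p = 0.039). It was not called with scaling by library totals only (adjusted p = 0.11), without FLAG-WT day 6 replicate 1 (log2 change -0.97, adjusted p = 0.36), without K19R day 6 replicate 1 (log2 change -1.24, adjusted p = 0.16) and without K19R day 6 replicate 2 (log2 change -1.84, adjusted p = 0.067). Nkx2-3, a gut and spleen gene, was lower too, at 0.243 and 0.142 CPM in K19R libraries, against 0.609 and 0.708 CPM in FLAG-WT libraries (log2 change -1.75 ± 0.64 (SE), edgeR adjusted p = 0.021). It was not called with scaling by library totals only (adjusted p = 0.064), without FLAG-WT day 6 replicate 1 (log2 change -1.87, adjusted p = 0.054), without FLAG-WT day 6 replicate 2 (log2 change -1.66, adjusted p = 0.074) and without K19R day 6 replicate 2 (log2 change -1.40, adjusted p = 0.14). Nkx1-2, a gene of caudal progenitors that shares 16.6% of its exon bases with Gm16764 on the opposite strand, had 29 counts in K19R and 0 in FLAG-WT on day 10. Taking 3 counts in each FLAG-WT library as the floor, it was at least 3.76-fold higher in K19R. Nkx6-3 had 28 counts in K19R against 1, a ratio of 21.8 with a 95% counting interval of 3.6 to 891. Both were higher in K19R, and the Nkx6-3 call was lost without K19R day 10 replicate 1 (log2 change 3.05, adjusted p = 0.063). T, the mesoderm and caudal progenitor gene, averaged 4.88 CPM in K19R and 0 CPM in FLAG-WT on that day. Of the 11 mesoderm markers tested, 6 were higher and 3 lower. The list of 12 summed to 42.1 to 46 CPM in K19R and 24.7 to 30.02 CPM in FLAG-WT. Much of the K19R sum came from Hand1, at 19.8 CPM in K19R and 1.04 CPM in FLAG-WT, which is also on the trophoblast list. Kdr, at 4.69 CPM in K19R and 14.2 CPM in FLAG-WT, and Foxf1, at 1.59 and 7.075 CPM, went the other way. The part of these markers in the Nkx1-2 difference was not tested.

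The Emx genes and Gbx1 were low in embryoid bodies, as was Gbx2 on days 6 and 10. Gbx2, a hindbrain gene also used by stem cells under LIF, had 0.685 and 1.07 CPM in K19R libraries, against 0.0527 and 0.27 CPM in FLAG-WT libraries on day 10 (log2 change 2.41 ± 0.55 (SE), edgeR adjusted p = 0.00053). On day 2 it had 7.88 and 8.99 CPM in K19R libraries, against 12.1 and 11.3 CPM in FLAG-WT libraries (log2 change -0.47 ± 0.18 (SE), edgeR adjusted p = 0.035). Gbx2 fell short of the threshold in DESeq2 (adjusted p = 0.12) and without any 1 of the 4 libraries (adjusted p = 0.065 to 0.21). In the annotation 43.5% of Gbx2's exon bases are shared with D130058E05Rik on the opposite strand, the highest such share among the 62 genes, so its level comes from the rest of its exons. Emx2, a cortex and urogenital gene, had 0.162 and 0.178 CPM in K19R libraries, against 0.913 and 1.18 CPM in FLAG-WT libraries on day 6 (log2 change -2.56 ± 0.60 (SE), edgeR adjusted p = 0.0007). On day 10 it had 1.94 and 2.49 CPM in K19R libraries, against 0.58 and 1.03 CPM in FLAG-WT libraries (log2 change 1.45 ± 0.42 (SE), edgeR adjusted p = 0.0048). The difference was lost without FLAG-WT day 10 replicate 1 (log2 change 1.10, adjusted p = 0.07). Gbx1 was called lower on day 2, at 0.454 and 0.377 CPM in K19R libraries, against 1.05 and 0.976 CPM in FLAG-WT libraries. The threshold was missed with no filter on low counts (adjusted p = 0.063), in DESeq2 (adjusted p = 0.2) and without any 1 of the 4 libraries (adjusted p = 0.11 to 0.19).

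Whether the K19R difference itself changed with time was tested against day 0 in the same model. It moved up for 7 and down for 7 of the 50 genes on day 2, 7 and 12 on day 6, and 13 and 7 on day 10, beside 12.7% and 14.4%, 22.1% and 22.4%, and 26.1% and 18.8% of all genes tested. In either direction these came to 27.1%, 44.5% and 45% of all genes. With library totals the share of all such calls that went up was 76.9% on day 6 and 80.3% on day 10, against 49.7% and 58.1% with TMM. For Six4 the difference grew by 0.54 ± 0.12 on day 2 (log2, SE, edgeR adjusted p = 0.0016), and by 1.96 ± 0.14 on day 6 (adjusted p = 3.5e-11). For Meis2 it fell by 2.21 ± 0.15 on day 6 (edgeR adjusted p = 9.9e-12). A further comparison, day 10 against day 6, was added after the crossing of Pitx and Irx lines had been seen. It called 13 of the 50 genes up and 10 down, beside 24.4% and 14.6% of all genes tested (39% either way). Pitx1 changed by 2.18 ± 0.24 (edgeR adjusted p = 7.5e-08) and Irx1 by 2.65 ± 0.36 (adjusted p = 1.6e-06). For both genes the change of the K19R difference between days 6 and 10 thus passed the threshold, in a comparison chosen on these data.

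Within K19R, differentiation changed many of the 50 genes between each pair of days. Between days 0 and 2, 15 rose and 14 fell, beside 28.5% and 27.9% of all genes tested (56.4% either way). Between days 2 and 6, 11 rose and 21 fell (34.7% and 32.1% of all genes, 66.8% either way). Between days 6 and 10, 26 rose and 7 fell (33.4% and 25.2%, 58.5% either way). The share that rose after day 6, 52%, was above the background. In this last step Pitx1 rose by 2.91 ± 0.17 (log2, SE, edgeR adjusted p = 2.4e-13). Of low genes, Lhx5, a forebrain gene, had 1.53 and 2.32 CPM on day 10, against 0.0811 and 0.178 CPM on day 6 in K19R (log2 change 3.81 ± 0.48 (SE), edgeR adjusted p = 1.7e-07), and Emx2 and Nkx2-3 rose with it by 3.65 and 3.34.

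In FLAG-WT, 11 rose and 16 fell between days 0 and 2 (28.5% and 27.6% of all genes, 56.1% either way). Between days 2 and 6, 14 rose and 15 fell (35.6% and 37%, 72.6% either way). Between days 6 and 10, 14 rose and 7 fell (21.2% and 22.9%, 44.2% either way). In the middle step library totals moved the median of all genes by -0.40 and the share of upward calls to 34.6% from 49.1%, and the 50 genes then split into 11 up and 19 down. Lhx1 rose by 7.56 ± 0.29 (log2, SE, edgeR adjusted p = 1.2e-17) to day 2, and Pax8 by 4.95 ± 0.30 (adjusted p = 1.9e-13). Gbx2 fell by 5.26 ± 0.31 (edgeR adjusted p = 2.7e-14) between days 2 and 6, and Six4 by 3.26 ± 0.11 (adjusted p = 1.8e-19). After no call between days 2 and 6, Meis1 rose between days 6 and 10, by 1.33 ± 0.12 (edgeR adjusted p = 1.6e-09). The day 2 and day 6 changes of the 2 genotypes share no libraries, but each step shares its middle day with the next.

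Undifferentiated cells were compared between wildtype LIF and each day 0 group. Line, medium and sequencing table all differ there and cannot be told apart. Of the 50 genes tested, 7 were higher and 26 lower in wildtype LIF than in FLAG-WT day 0, and 8 and 26 than in K19R day 0. Over all genes the shares were 32.4% and 32.5% (64.9% either way) against FLAG-WT, and 32.7% and 32.5% (65.2% either way) against K19R, so the 52% of these genes that were lower exceeded the background and the higher ones fell short of it. The median log2 change of the 50 was -1.08 and -1.17, beside 0.00 and 0.02 over all genes tested. Both comparisons use the same wildtype LIF libraries.

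Meis2 differed most among the well expressed genes. It had 0.78 and 1.06 CPM in wildtype LIF, 76.6 and 82.9 CPM in K19R and 70.7 and 67.8 CPM in FLAG-WT libraries on day 0. Its log2 change was -6.34 ± 0.14 against K19R (edgeR adjusted p = 1.2e-23) and -6.14 ± 0.14 against FLAG-WT (adjusted p = 2.9e-23). Msx2 had 1.62 and 0.96 CPM in wildtype LIF, 9.54 and 10.5 CPM in K19R and 11.7 and 12.5 CPM in FLAG-WT (log2 change -3.38 ± 0.20 (SE), edgeR adjusted p = 2.4e-14 against FLAG-WT). Lhx2, Nkx2-9, Irx2, Lhx6 and Pitx1 were lower in wildtype LIF in both comparisons as well, by 3.83, 2.78, 2.72, 2.33 and 2.12 on the log2 scale against FLAG-WT. Dlx5, a bone and facial gene, was at 0 in both wildtype LIF libraries, at least 4.57-fold lower than in K19R day 0 against the floor of 3 counts per library. Six4 had 54.5 and 60.7 CPM in wildtype LIF, 55.4 and 61.5 CPM in K19R and 54.1 and 54.2 CPM in FLAG-WT libraries, and was called in neither comparison.

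Few genes were higher in wildtype LIF. Gbx2, known as a target of LIF signalling in stem cells, had 17.8 and 16.4 CPM in wildtype LIF, 1.75 and 1.55 CPM in K19R and 2 and 1.76 CPM in FLAG-WT libraries (log2 change 3.17 ± 0.19 (SE), edgeR adjusted p = 3.8e-14 against FLAG-WT). Pax6 had 6.17 and 4.95 CPM in wildtype LIF, 2.35 and 1.98 CPM in K19R and 2.25 and 2 CPM in FLAG-WT (log2 change 1.36 ± 0.22 (SE), edgeR adjusted p = 4.3e-06 against FLAG-WT). Gbx1, Pax8, Dlx4 and Nkx6-3 were also higher in both comparisons, and Dlx3 against K19R alone. Of all calls, 23 of 33 against FLAG-WT and 28 of 34 against K19R held under every alternative and with each library left out. Those lost under 1 or more included Dlx4 and Nkx6-3 against FLAG-WT and Dlx3 against K19R. Wildtype LIF libraries lay above all 4 day 0 libraries for both genes whose values are given.

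**Figure D5:**
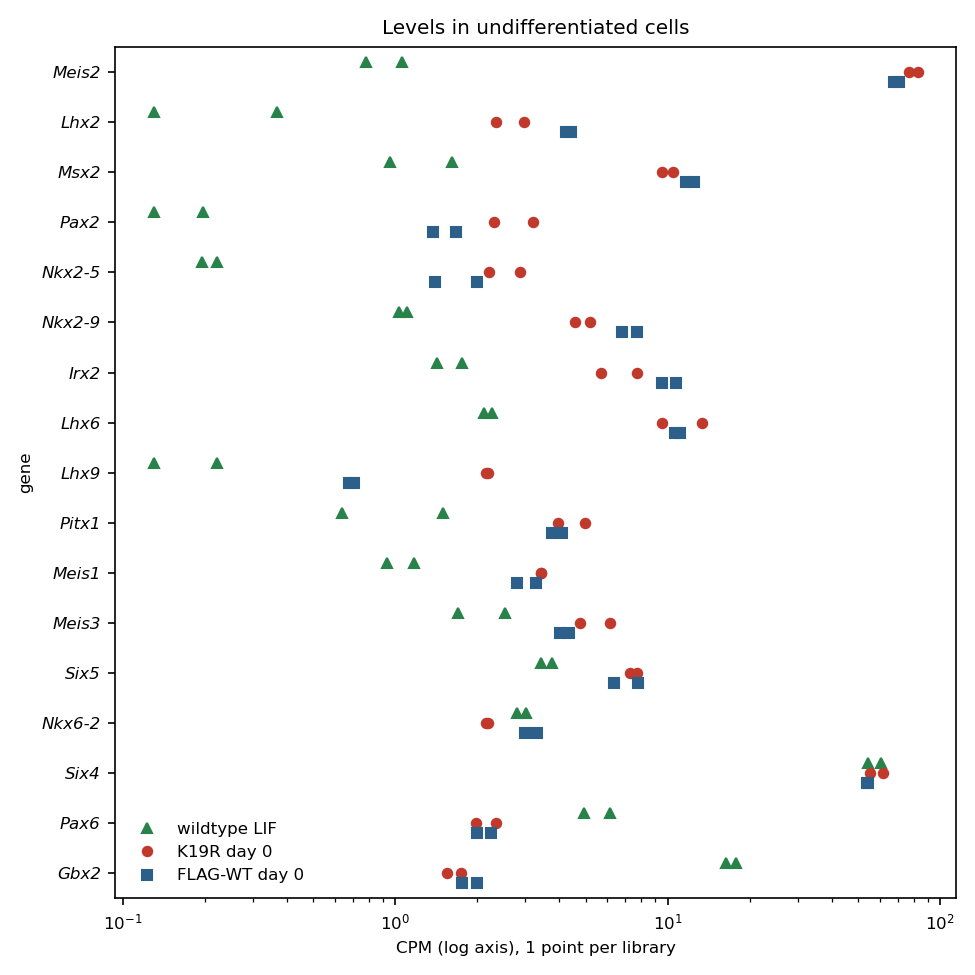
CPM on a log axis of 17 genes with a mean of 2 CPM or more in at least 1 undifferentiated group, with 1 point per library (green triangles wildtype LIF, red circles K19R day 0, blue squares FLAG-WT day 0), sorted by the ratio of wildtype LIF to FLAG-WT. Meis2 lies at 0.78 and 1.06 CPM in wildtype LIF and at 67.8 CPM or more in every day 0 library, and Gbx2 lies higher in wildtype LIF.

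The proteins that act with these factors were read from a list of 23 genes (PBX, PREP, EYA, DACH, LDB, LMO and TLE proteins), of which 22 were tested. In K19R against FLAG-WT, 1 was higher and 2 lower on day 0, 4 and 3 on day 2, 11 and 4 on day 6, and 8 and 3 on day 10, with median log2 changes of -0.01, 0.13, 0.52 and 0.36. The higher ones are 4.55%, 18.2%, 50% and 36.4% of the 22, beside 5.51%, 20%, 28.4% and 33.2% of all genes tested, and the lower ones 9.09%, 13.6%, 18.2% and 13.6%, beside 4.98%, 21.8%, 30.1% and 25.2%. The medians of all genes were 0.00, 0.00, 0.02 and 0.13. Eya1, the phosphatase and coactivator that works with Six4 and its relatives, was lower in K19R on days 2 and 6 and did not pass the threshold on day 10. It averaged 0.919 ± 0.107 CPM in K19R and 4.04 ± 0.79 CPM in FLAG-WT on day 2 (SD, n = 2; log2 change -2.15 ± 0.25 (SE), edgeR adjusted p = 1.2e-07). On day 6 it averaged 0.295 ± 0.187 CPM in K19R and 2.74 ± 0.617 CPM in FLAG-WT (log2 change -3.18 ± 0.35 (SE), edgeR adjusted p = 1.9e-08). Pknox2, a PREP protein related to the Meis proteins, averaged 2.31 ± 0.0523 CPM in K19R and 0.483 ± 0.0681 CPM in FLAG-WT on day 6 (log2 change 2.27 ± 0.37 (SE), edgeR adjusted p = 8e-06). Ldb2, an LIM-domain binding protein, had 60 counts in K19R against 1 on day 6, a ratio of 45.4 with a 95% counting interval of 7.85 to 1824. Lmo2, a blood regulator of the LIM-only class, averaged 2.33 ± 0.633 CPM in K19R and 0.213 ± 0.0718 CPM in FLAG-WT on day 10 (log2 change 3.42 ± 0.44 (SE), edgeR adjusted p = 2.3e-07). Lmo2 was lower on day 0 at 0.797 CPM in K19R and 1.63 CPM in FLAG-WT. Pbx2 was lower on day 0 at 38 CPM in K19R and 52.5 CPM in FLAG-WT. Eya3 was higher on day 0 at 79.2 CPM in K19R and 66.3 CPM in FLAG-WT. Dach1 was higher on day 2 at 0.747 CPM in K19R and 0.218 CPM in FLAG-WT. Lmo2 was higher on day 2 at 4.26 CPM in K19R and 2.71 CPM in FLAG-WT. On day 10 Ldb2 was called higher on 25 counts in K19R and 1 in FLAG-WT, a ratio of 19.5 with a 95% counting interval of 3.19 to 799. Pknox2 was higher on day 10 at 1.7 CPM in K19R and 0.216 CPM in FLAG-WT.

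Another 51 homeobox genes outside both Hox and the 11 families were listed for comparison, of which 41 were tested. In K19R, 2 were higher and 2 lower on day 0, 6 and 15 on day 2, 6 and 12 on day 6, and 15 and 9 on day 10, with median log2 changes of -0.17, -0.55, -0.31 and 0.61 beside those same medians of all genes. The higher ones are 4.88%, 14.6%, 14.6% and 36.6% of the 41 and the lower ones 4.88%, 36.6%, 29.3% and 22%, to be read beside the same shares of all genes. Otx2, a regulator of epiblast and anterior neural identity, averaged 76.9 ± 3.26 CPM in K19R and 12.5 ± 2.17 CPM in FLAG-WT on day 6 (SD, n = 2; log2 change 2.61 ± 0.11 (SE), edgeR adjusted p = 2.4e-16). Otx2 averaged 25.1 ± 1.61 CPM in K19R and 0.832 ± 0.43 CPM in FLAG-WT on day 10 (log2 change 4.91 ± 0.19 (SE), edgeR adjusted p = 6.2e-17). Hlx, a gene of gut mesenchyme and blood, averaged 0.444 ± 0.175 CPM in K19R and 3.51 ± 0.38 CPM in FLAG-WT on day 6 (edgeR adjusted p = 2.5e-08). Onecut1 was higher on day 0 at 2.77 CPM in K19R and 1.33 CPM in FLAG-WT. Hhex was lower on day 0 at 10.8 CPM in K19R and 15.4 CPM in FLAG-WT. Vax2 was lower on day 0 at 8.06 CPM in K19R and 11.4 CPM in FLAG-WT. On day 2 Gsx2 was called lower on 1 count in K19R and 24 in FLAG-WT, a ratio of 0.0359 with a 95% counting interval of 0.00087 to 0.22. Tlx1 was higher on day 2 at 0.607 CPM in K19R and 0.0828 CPM in FLAG-WT. Barx2 was higher on day 2 at 0.714 CPM in K19R and 0.109 CPM in FLAG-WT. Evx1 was higher on day 6 at 1.24 CPM in K19R and 0.241 CPM in FLAG-WT. On day 10 Evx1 was called higher on 134 counts in K19R and 3 in FLAG-WT, a ratio of 34.8 with a 95% counting interval of 11.6 to 171. On day 10 Dbx2 was called higher on 41 counts in K19R and 1 in FLAG-WT, a ratio of 31.9 with a 95% counting interval of 5.42 to 1291. Genes of this list were called in both directions on every day.

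Several of the genes lie next to one another in the genome. Within 200 kb, 19 of the 62 form 13 neighbouring pairs, 7 of which had both genes tested. Dlx3 and Dlx4 were both called higher in K19R on day 6, and on no other day were both called. Among the others, Dlx1 with Dlx2, Nkx2-2 with Nkx2-4 or Pax1, Nkx2-9 with Pax9, and Six2 with Six3 were never called together. With so few pairs this is a description only.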

How the data were processed

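RNA was measured in 18 libraries of mouse embryonic stem cells and embryoid bodies, 2 in each of 9 groups. The deposited values are raw read-pair counts per gene name: per the submitters' processing notes, the tools included STAR 2.7.0c, Trim Galore 0.6.0 and FastQC 0.11.7 and the build was GRCm38/mm10, and per the file headers, counts came from featureCounts (1.6.3 for the FLAG-EED table, 1.6.4 for the wildtype table) with GENCODE vM19, on exons and without strand. Reads from a gene and an overlapping antisense gene therefore cannot be told apart, and overlapping pairs are not assigned. The 62 genes were taken by symbol. They and the gene lists were chosen with earlier results of these data known. Of the 62, 3 enter the counts and fits but are not reported here.

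Counts were tested with edgeR 4.0.16 in R 4.3.3 (quasi-likelihood, TMM, filterByExpr with minimum count 10 and minimum total 15) across all 19092 genes of the 16 FLAG-EED libraries, or 19296 genes of all 18 libraries for the wildtype LIF comparisons. P-values were adjusted by Benjamini-Hochberg over all genes tested, with a threshold of 0.05. The fits were tested on simulated counts. Log2 changes carry standard errors, levels are CPM, and spreads are SD over 2 libraries. Ratios on 1 to 3 counts carry exact 95% intervals, and these intervals and the floor of 3 counts per library cover counting error only. Totals ran from 20158077 to 28917558 in the FLAG-EED table and were 14190166 and 37375083 for wildtype LIF.

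Genes given with values per library had adjusted p under 0.05 and a mean of 2 CPM or more in 1 of both groups (the first 20 by size of change), or the highest mean of their family. In the other comparisons these genes and the 5 largest changes could be named, and of the partner and other homeobox lists the 3 largest in each K19R comparison. Lower genes that were called were named after their values were seen. Alternatives were RLE size factors, library totals only, no filter on low counts, DESeq2 1.42.0, a replicate block, a fit of the 4 libraries compared, and leaving out each library in turn. Promoter sequences and the promoter background came from a RefSeq table on GRCm38.p6.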

Additional observations from a re-analysis of the deposited data

Results flagged for a closer look

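These results are given because the difference between K19R and FLAG-WT, in log2 units, was not the same on 2 days by an edgeR test of the change itself (adjusted p under 0.05 over all genes tested). Values are the log2 difference on the later day minus that on the earlier one. Day 0 libraries enter every comparison with day 0, so those comparisons are not independent of each other.

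Between days 0 and 2 the difference changed for 14 of the 50 genes, 28% beside 27.1% of all genes tested. Moves towards higher K19R levels included Dlx1 3.32, Msx1 2.57, Six2 2.25, Nkx6-2 2.00, Dlx3 1.12, Six4 0.54, and moves towards lower K19R levels included Pitx1 -2.49, Irx3 -1.87, Lhx9 -1.79, Meis3 -1.78, Meis1 -1.25, Meis2 -1.09, Msx2 -1.09. Of the 14 calls, 8 held under every alternative and with each library left out, and those lost under 1 or more included Dlx1, Dlx3, Irx3, Lhx9, Msx2 and Six2.

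Between days 0 and 6 the difference changed for 19 of the 50 genes, 38% beside 44.5% of all genes tested. Moves towards higher K19R levels included Dlx3 2.82, Six2 2.48, Six4 1.96, Nkx2-9 1.79, Six5 1.04, and moves towards lower K19R levels included Nkx2-3 -3.18, Emx2 -3.05, Lhx9 -2.74, Lhx5 -2.44, Meis2 -2.21, Nkx2-5 -2.08, Six3 -1.66, Lhx2 -1.63, Meis1 -1.26, Pitx1 -1.16, Nkx6-2 -0.88. Of the 19 calls, 10 held under every alternative and with each library left out, and those lost under 1 or more included Emx2, Lhx5, Lhx9, Nkx2-3, Nkx2-5, Nkx6-2, Six2 and Six5.

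Between days 0 and 10 the difference changed for 20 of the 50 genes, 40% beside 45% of all genes tested. Moves towards higher K19R levels included Nkx1-2 7.63, Nkx6-3 5.24, Dlx3 3.04, Gbx2 2.59, Six2 2.48, Nkx2-5 2.26, Irx1 1.85, Six5 1.38, Six4 1.35, Pitx1 1.02, Irx2 0.56, and moves towards lower K19R levels included Lhx9 -4.23, Irx4 -1.99, Dlx2 -1.82, Meis1 -1.78, Lhx6 -1.52, Nkx6-2 -1.37, Pax6 -1.17. Of the 20 calls, 15 held under every alternative and with each library left out, and those lost under 1 or more included Dlx2, Irx1, Irx2, Pax6 and Six2.

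Between days 6 and 10, a comparison added after seeing the data, the difference changed for 23 of the 50 genes, 46% beside 39% of all genes tested. Moves towards higher K19R levels included Nkx2-5 4.34, Gbx2 4.02, Emx2 4.01, Pax3 3.44, Irx1 2.65, Nkx2-3 2.50, Pitx1 2.18, Lhx1 2.13, Meis2 1.93, Lhx5 1.88, Lhx2 1.84, Irx2 0.96, and moves towards lower K19R levels included Nkx2-4 -2.81, Irx4 -1.98, Irx5 -1.69, Irx3 -1.32, Lhx6 -1.20, Nkx2-9 -1.16, Pax6 -1.14, Six4 -0.61, Meis1 -0.52. Of the 23 calls, 16 held under every alternative and with each library left out, and those lost under 1 or more included Irx5, Lhx5, Meis1, Nkx2-3, Nkx2-4, Pax6 and Six4.

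Fitted values of genes with few counts, such as Nkx1-2, Nkx6-3, Lhx9, Emx2, Nkx2-3 and Dlx1, depend on the prior count. No explanation of these changes was tested.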

How the results depend on the processing

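No called gene changed direction under any alternative run. On day 0 the K19R comparison called 2 genes higher and 2 lower; library totals only gave 1 higher, a fit of the 4 libraries alone gave 5 higher, and DESeq2 gave 1 lower. The change of the K19R difference between days 0 and 2 called 7 genes up, against 4 in DESeq2. With 1 library left out at a time, the counts ran from 0 to 1 higher and 0 to 1 lower on day 0, 6 to 11 higher on day 2, and 7 to 9 higher on day 6. They ran from 4 to 5 lower for K19R and 4 to 6 lower for FLAG-WT between days 6 and 10. For the change of the K19R difference they ran from 4 to 7 up between days 0 and 2 and from 7 to 11 down between days 0 and 6. The cause of these shifts was not tested, beyond the smaller number of libraries. Over all calls, 388 of 391 held with RLE size factors, 376 of 391 with library totals only, 383 of 391 with no filter, 357 of 389 in DESeq2, 230 of 231 in the fit of 4 libraries, and 1574 of 1868 with a library left out.

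Replicate numbers showed no strong pairing of the samples: over 28 pairs of groups the correlation of same-numbered deviations ran from -0.03 to 0.044, none over 0.1. A weak pairing could be hidden by counting noise in these deviations. With a replicate block the K19R comparison called 2 higher and 2 lower on day 0, 10 and 10 on day 2, 11 and 15 on day 6, and 18 and 9 on day 10, and 388 of 391 calls held. With 2 libraries a group and 3 counts worth 0.0738 to 0.195 CPM, changes in the lowest genes were not resolved.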
